A study of Mus musculus with 6 samples.

Results

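The common response of As4.1 cells to hydrogen peroxide and to an interleukin was described, as the probe sets on which every treated array lay on the same side of every vehicle array. As4.1 is a mouse line that was derived from a renal tumour and is used as a model of renin-producing kidney cells. The tumour arose in mice with the SV40 T antigen under a renin promoter, and this viral protein binds p53 and the retinoblastoma protein, which limits the line as a model of the cell cycle. The vehicle group held 2 cultures that received vehicle, the hydrogen peroxide group 2 cultures that received hydrogen peroxide, and the interleukin group 2 cultures that received an interleukin that the labels do not name. All 6 cultures were of this single line with no other allele or agent named, and the doses and treatment times are not given in the sources used here. The comparison used all 6 arrays of the series, 4 treated and 2 vehicle, 1 Affymetrix Mouse Genome 430 2.0 array per culture, assigned by sample title. Of 22519 probe sets tested, 1235 formed the upward common response and 1310 the downward one. Membership needed 2 things: an adjusted p under 0.05 for the mean of both treatments against vehicle, and all 4 treated arrays above, or all 4 below, both vehicle arrays.

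Hydrogen peroxide is a reactive oxygen species that damages DNA and oxidises proteins, and cells answer such damage through p53, which stops the cell cycle, and through factors that adjust metabolism and translation. Interleukins are secreted signals of the immune system that act through surface receptors, and many of them end in NF-kappaB or STAT factors that switch on cytokines, acute-phase proteins and antiviral genes. Renin cells are modified smooth muscle cells of the kidney's arterioles, and cyclic AMP is the main signal that raises their renin.

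Signals are MAS5 values, in which the brightness of a probe set is summarised on a linear scale. A change is given as the difference in mean log2 signal, with the moderated standard error (SE) of limma, and the adjusted p is that of limma after Benjamini-Hochberg adjustment over all tested probe sets. The gap is the distance in log2 signal between the lowest treated and the highest vehicle array, or between the lowest vehicle and the highest treated array for a fall, so that a gap of 1 means that the nearest arrays of both sides differed 2-fold. A gene is represented by its brightest tested probe set, which gave 10892 genes. Array values are listed in the order replicate 1, replicate 2, and where groups are not named they run vehicle, then hydrogen peroxide, then interleukin.

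Limma called 2865 probe sets (12.7% of those tested) for the pooled treatments, 1457 higher (6.47%) and 1408 lower (6.25%). All 4 treated arrays lay above both vehicle arrays on 3523 probe sets (15.6%) and below on 3575 (15.9%), so that 2288 and 2265 of these did not pass the test. Both conditions together held for 5.48% upward and 5.82% downward. On the scale of genes, 918 were called higher (8.43% of 10892) and 554 lower (5.09%), and 781 rose in common (7.17%) and 521 fell (4.78%). Every list share below is to be read beside these shares of all genes, also where they are not repeated. Hydrogen peroxide alone was called against vehicle on 5.69% of probe sets (3.05% higher and 2.65% lower) and interleukin alone on 16.1% (7.58% higher and 8.52% lower). Another 222 probe sets were called higher and 98 lower although a treated array overlapped the vehicle arrays.

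The counts depended on the vehicle arrays and on what was taken as spread. With vehicle array 1 left out, the common response held 434 probe sets up and 274 down, and with vehicle array 2 left out 454 up and 291 down. When the treatments were fitted as 1 group of 4 arrays, so that the difference between hydrogen peroxide and interleukin counted as spread, 24 probe sets were called higher (0.107%) and 32 lower (0.142%).

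Most of the common response was moderate in size. The gap reached 0.25 for 722 of the 1235 upward probe sets, 0.5 for 255, 1 for 35 and 2 for 5. Downward, 671 of 1310 reached 0.25, 205 reached 0.5, 18 reached 1 and 2 reached 2. The median change of the upward probe sets was 0.58 under hydrogen peroxide and 0.73 under interleukin, and that of the downward ones -0.48 and -0.70. Both treatments are set against the same vehicle arrays, so their changes are not independent of each other.

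The treatments themselves differed on part of the common response. The contrast of interleukin against hydrogen peroxide called 8.82% of all tested probe sets (4.95% higher and 3.87% lower under interleukin). Its estimate does not use the vehicle arrays, but its standard error and adjusted p do. By this contrast 276 upward members were higher and 58 lower under interleukin, and for 901 no difference was called. Among the downward members, 208 were lower and 34 higher under interleukin, and 1068 were not called.

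Controls for RNA quality moved with treatment. For beta-actin, the signal of the 3' control probe set divided by that of the 5' one was 1.22 and 1.26 on the vehicle arrays, 1.35 and 1.32 with hydrogen peroxide and 1.46 and 1.55 with interleukin. All 4 treated arrays were also above both vehicle arrays for the transferrin receptor control (2.30 to 3.95 against 1.85 to 2.14) and the pyruvate carboxylase control (2.03 to 2.89 against 1.59 to 1.66), while the Gapdh ratio overlapped between the groups (0.825 to 0.873). The part of RNA quality in the common response was not tested. In such bulk samples a lower level in every cell and fewer cells that express a gene cannot be told apart.

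The upward genes of widest gap came from several functions. Anxa8, a calcium-dependent phospholipid-binding annexin, gave signals of 30.3 and 139.8 with vehicle, 1191 and 1174 with hydrogen peroxide and 559.7 and 665 with interleukin. Its gap of 2.00 was the only one of 2 or more among genes, and it rose by 3.71 ± 0.47 (SE, adjusted p 0.000956). Its vehicle signals lay below 193.7, the lowest mean signal tested, so the size of its change rests on dim values.

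Lcn2, a secreted protein that binds bacterial iron carriers, read 85.9 and 39.3 with vehicle, 322 and 289 with hydrogen peroxide and 9945 and 7014 with interleukin. It rose under both treatments, by 2.39 (adjusted p 0.0042) and 7.17 (adjusted p 7.85e-07), sizes that rest on vehicle signals below 193.7. The pentraxin Ptx3, another soluble recognition protein of innate immunity, was at 782 and 858 with vehicle, 2281 and 2639.6 with hydrogen peroxide and 19488 and 13175 with interleukin. The hydrogen peroxide arrays of both genes stood between the vehicle and the interleukin arrays, with no overlap.

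C2, a complement component that is cut to form part of a C3 convertase, gave 221 and 217 with vehicle, 752 and 706 with hydrogen peroxide and 1135 and 818 with interleukin. Its change of 1.94 ± 0.20 (SE, adjusted p 0.000305) was 1.74 under hydrogen peroxide and 2.14 under interleukin, a difference of 0.40 that did not pass (adjusted p 0.331). Of its other 2 tested probe sets 1 was in the upward response and 1 was not called, and under hydrogen peroxide neither passed (adjusted p 0.158 and 0.46). Cox6a2, the heart and muscle form of a cytochrome c oxidase subunit, went from 219 and 174 to 748 and 773 with hydrogen peroxide and 689.5 and 554 with interleukin. Tcea3, of the transcription elongation factor S-II family, went from 196 and 176 to 644 and 540.3, then 574 and 440.5. These 3 genes passed the test also when the treatments were fitted as 1 group (adjusted p 0.0372, 0.0377 and 0.047).

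Cdkn1a encodes p21, the inhibitor of cyclin-dependent kinases that p53 induces. Its signals were 2556 and 2547 with vehicle, 13343 and 13796 with hydrogen peroxide and 6213 and 5995 with interleukin, a gap of 1.23. Dcxr, a reductase of sugars and dicarbonyls, stood at 867 and 794, then 5454 and 5125, then 2522 and 2066 in the same order. Both rose under each treatment and further under hydrogen peroxide, with differences of -1.15 (adjusted p 5.07e-05) and -1.21 (adjusted p 0.000464) for interleukin minus hydrogen peroxide. The transcript 1700007K13Rik had the same order, 102 and 88.4 with vehicle, 1469.8 and 1676 with hydrogen peroxide and 293 and 313 with interleukin.

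Ltbp2, a latent TGF-beta binding protein of the matrix, gave 199.6 and 168, then 535 and 552, then 1778 and 1202 on the vehicle, hydrogen peroxide and interleukin arrays. Tnfaip2, named for its induction by tumour necrosis factor, gave 347 and 301, then 947 and 875, then 2405 and 1267. For both, all 4 treated arrays were at least 2-fold above the higher vehicle array. Vnn1, a pantetheinase, rose by 1.71 ± 0.30 (SE, adjusted p 0.00511), Ltc4s, the synthase of leukotriene C4, by 2.08 ± 0.34 (adjusted p 0.00373) and Gdf9, a growth factor best known from oocytes, by 2.55 ± 0.44 (adjusted p 0.00482). Of the 15 upward genes of widest gap, 9 had at least 1 vehicle array below 193.7 and 5 had both.

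The downward genes of widest gap were brighter. Tmem255a, a membrane protein, had signals of 6696 and 6436 with vehicle, 2128 and 2336 with hydrogen peroxide and 1399 and 1841 with interleukin. It fell by 1.80 ± 0.13 (SE, adjusted p 2.88e-05), its gap of 1.46 was the widest among the downward genes, and its other 3 tested probe sets fell too. Prss35, a secreted protein related to serine proteases, read 2528 and 2376, then 870.3 and 775, then 1159.6 and 1054 in the same order. Tle4, a Groucho-type corepressor, read 1284 and 1134, then 556 and 451, then 448 and 437. These were the 3 downward genes with a gap of 1 or more.

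Several secreted and matrix proteins were among the 15. Mgp, the matrix Gla protein that restrains calcification, had signals of 26142 and 26382 with vehicle, 11765 and 9113 with hydrogen peroxide and 15210.4 and 15224 with interleukin. Aspn, a small leucine-rich proteoglycan, stood at 2933 and 2787, then 1239.9 and 1301, then 1556 and 1154, and Sparcl1, a matricellular protein, at 1754 and 1876, then 875 and 699.7, then 907 and 633. Noggin (Nog), which binds and blocks bone morphogenetic proteins, stood at 7226 and 7608, then 4126 and 4035, then 2358 and 3085. The gaps of these 4 genes were 0.78, 0.84, 0.95 and 0.81. That every treated array lay below both vehicle arrays follows from the rule that selected them.

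Cd55, the decay-accelerating factor that protects cells from complement, was the brightest of these after Mgp. It gave 20323 and 17576 with vehicle, 9584 and 10208 with hydrogen peroxide and 9164 and 8338 with interleukin, and fell by 1.02 ± 0.09 (SE, adjusted p 0.000113). Zmynd19, a MYND-type zinc finger protein, fell by 1.09 ± 0.11 (adjusted p 0.000321) and its treated signals, 1625 and 1575 with hydrogen peroxide and 1673 and 1497 with interleukin, overlapped. Nr4a2, an orphan nuclear receptor, fell by 0.95 ± 0.16 (adjusted p 0.0038), and 3 other tested probe sets of it did not pass. The remaining members of the 15 were Abca9, Tril, Fam189a2, Elfn1 and Inmt, of which Abca9 and Tril lost their calls without either vehicle array and Elfn1 without any 1 array other than interleukin array 2.

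**Figure D1:**
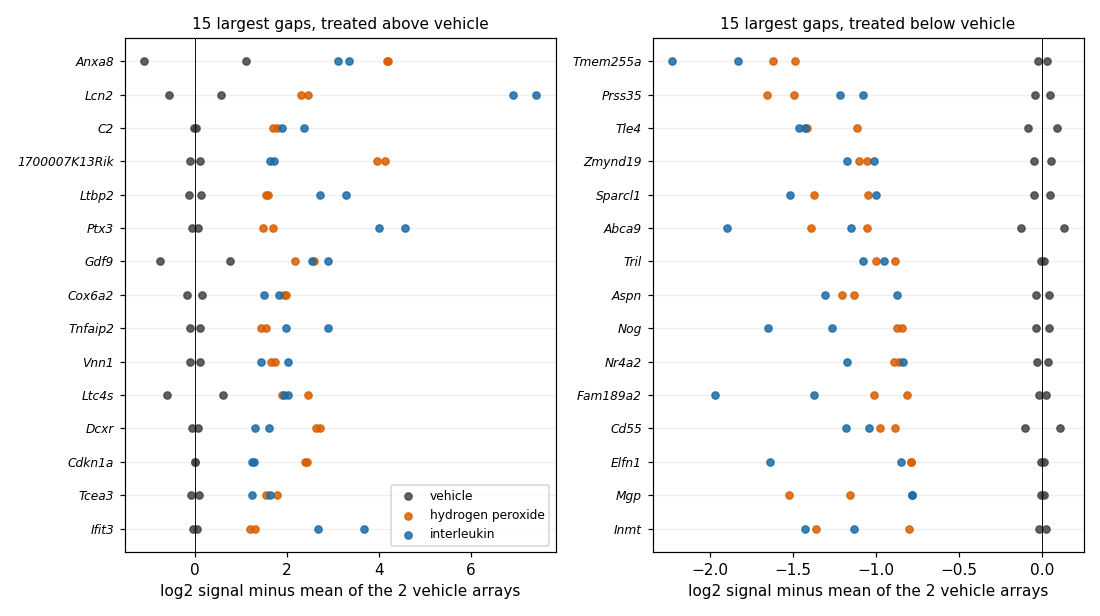
The 15 upward (left) and 15 downward (right) genes of widest gap, with each of the 6 arrays as a point at its log2 signal minus the mean of both vehicle arrays; grey is vehicle, orange hydrogen peroxide and blue interleukin. By the rule of selection the treated points of a gene all lie on one side of its vehicle points, by 2.00 for Anxa8 and 1.46 for Tmem255a. The interleukin points of Lcn2 and Ptx3 lie far to the right of the hydrogen peroxide points.

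Interferon-induced genes, which encode antiviral effectors and the factors that induce them, were the list with the largest share in the upward response. Of 31 tested members, 30 were called higher and 26 (83.9%) had all 4 treated arrays above both vehicle arrays, beside 7.17% of all genes. The median change of the list was 1.15 (0.05 over all genes), 0.58 under hydrogen peroxide and 1.65 under interleukin, and 27 members were higher under interleukin than under hydrogen peroxide by the test of that difference. With 1 array left out in turn the count ranged from 23 to 29. Fitted as 1 group of treated arrays, 1 member passed.

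Oas1a, a 2'-5' oligoadenylate synthetase that activates RNA cleavage, gave 3464 and 3323 with vehicle, 7141 and 6291 with hydrogen peroxide and 19614 and 17782 with interleukin. The arrays of the 3 groups did not overlap, and the gap was 0.86. Ifit3, which takes part in the sensing of foreign RNA, gave 1286 and 1208, then 2861 and 3068, then 15875 and 8016, and Zbp1, a sensor of left-handed nucleic acid, 649.9 and 610.1, then 1269.6 and 1198, then 7009 and 5598. Iigp1, an interferon-inducible GTPase, gave 1179 and 1217, then 2044 and 1971, then 11996 and 9414, and Rtp4, an interferon-induced transmembrane-domain protein, 5068 and 5396, then 8730 and 8342, then 20605 and 18864. Each of the 5 rose under hydrogen peroxide alone (adjusted p 0.00112, 0.0167, 0.00624, 0.0133 and 0.00308) as well as under interleukin. Other tested probe sets of Zbp1, Iigp1 and Rtp4 did not pass under hydrogen peroxide (adjusted p 0.0537, 0.25 and 0.258), although all 3 were in the upward response.

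The promoters of these genes are shown because the members moved together. RefSeq windows of 250 bases before to 50 after the annotated start (GRCm38.p6) were searched on both strands for the core of the interferon-stimulated response element, a motif chosen after the values had been seen. It was in 11 of 21 windows (52.4%) of 18 matched members and in 3.44% of all 32851 windows. Capitals mark it, including overlapping matches, in Oas1a (chr5:120907476-120907775, minus strand) and in Ifit3 (chr19:34583279-34583578, plus strand). A match is a description of letters and not evidence of a used site.
Oas1a: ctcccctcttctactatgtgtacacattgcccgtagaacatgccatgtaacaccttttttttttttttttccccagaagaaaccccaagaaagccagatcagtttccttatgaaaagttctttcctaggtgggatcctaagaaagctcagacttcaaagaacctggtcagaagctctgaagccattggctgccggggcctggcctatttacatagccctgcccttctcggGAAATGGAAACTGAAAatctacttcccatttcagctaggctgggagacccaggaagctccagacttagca
Ifit3: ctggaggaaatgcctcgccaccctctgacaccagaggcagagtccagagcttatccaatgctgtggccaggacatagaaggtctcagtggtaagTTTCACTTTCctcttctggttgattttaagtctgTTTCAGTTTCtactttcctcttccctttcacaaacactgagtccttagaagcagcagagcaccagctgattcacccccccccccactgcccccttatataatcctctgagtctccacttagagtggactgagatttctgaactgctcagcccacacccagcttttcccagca

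MHC class I genes and proteasome subunits present peptides to T cells. Of 25 tested members 10 were called higher and 9 (36%) belonged to the upward response, with a median of 0.20. H2-D1, a class I heavy chain, went from 22549.8 and 23694 to 29522 and 28265 with hydrogen peroxide and 33468 and 32032 with interleukin. The immunoproteasome subunit Psmb8 went from 5411 and 5487 to 7129 and 6674, then 9439 and 9070, and the light chain B2m from 39436 and 35185 to 45443 and 43026, then 61603 and 52977. The peptide transporter Tap1 rose by 0.71 ± 0.12 (SE, adjusted p 0.00385), by 0.91 more under interleukin than under hydrogen peroxide (adjusted p 0.00223). Class I genes are near-identical to each other and probe sets may not tell them apart. The count fell to 3 without either vehicle array and to 2 with no trend in the variance model.

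Chemokines and cytokines had 14 of 21 tested members called higher and 1 lower, and 9 (42.9%) in the upward response, with a median of 0.91. The changes were larger under interleukin: 14 members differed between the treatments, each higher under interleukin. Il33, an alarmin of the interleukin-1 family, gave 232 and 212 with vehicle, 514 and 402 with hydrogen peroxide and 3012 and 2540.3 with interleukin. Lif, a cytokine of the interleukin-6 family, gave 415 and 278, then 607 and 683, then 4757 and 3137. Il6 itself gave 132 and 92.9, then 249 and 139, then 9253 and 5717, and the chemokine Ccl2 5264 and 4784, then 6084 and 5349, then 42611 and 39859. Il6 and Ccl2 met the rule by gaps of 0.08 and 0.02, and their changes under hydrogen peroxide, 0.75 and 0.18, did not pass the test (adjusted p 0.216 and 0.321).

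NF-kappaB subunits, targets and feedback genes had 10 of 24 called higher and 8 (33.3%) in the upward response, with a median of 0.42. Ptgs2, the inducible cyclooxygenase, went from 1465 and 1292 to 2339.7 and 2346 with hydrogen peroxide and 14145 and 10341 with interleukin, and rose under each (adjusted p 0.0183 and 8.82e-07). The other Ptgs2 probe set changed by 0.30 under hydrogen peroxide (adjusted p 0.537) and overlapped the vehicle arrays. The inhibitor Nfkbia went from 13477 and 15728 to 17212 and 17743, then 30085 and 31981. Nfkbiz, a nuclear co-regulator of the family, changed by 0.17 under hydrogen peroxide (adjusted p 0.438) and 2.72 under interleukin (adjusted p 3.61e-07). Sod2, the mitochondrial superoxide dismutase and an NF-kappaB target, changed by 0.11 (adjusted p 0.515) and 2.34 (adjusted p 1.8e-07). For the last 2, membership rests on gaps of 0.09 and 0.02.

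Acute-phase, JAK-STAT3 and C/EBP genes had 9 of 19 called higher and 1 lower, with 4 up (21.1%) and 1 down (5.26%) in common and a median of 0.36. Saa3, a serum amyloid A protein, gave 236 and 252 with vehicle, 508 and 527 with hydrogen peroxide and 72735 and 81934 with interleukin. Its change was 1.08 under hydrogen peroxide (adjusted p 0.00199) and 8.31 under interleukin (adjusted p 1.7e-10), so both groups stood apart from vehicle and far apart from each other. The kinase Jak1 fell by 0.34 ± 0.07 (SE, adjusted p 0.0139), as did its other 2 tested probe sets. Complement components and regulators had 5 of 10 called higher and 2 lower, 2 and 2 of them (20% each) in common, with a median of 0.43. Beside C2 and Cd55 these were the protease C1ra, which rose by 0.94 ± 0.09 (adjusted p 0.00019), and properdin (Cfp), which fell by 0.99 ± 0.19 (adjusted p 0.00906).

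Targets of p53, which arrest the cycle, repair DNA or promote cell death, had 17 of 30 tested members called higher and none lower. In the upward response were 12 (40%), with a median of 0.53 for the list, 0.58 under hydrogen peroxide and 0.31 under interleukin. Here hydrogen peroxide had the larger changes: 12 members were lower under interleukin than under hydrogen peroxide and 3 were higher. The count was 7 without vehicle array 2, and between 11 and 15 without any other array.

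Mdm2, the ubiquitin ligase that limits p53, gave 2119 and 2144 with vehicle, 6459.8 and 7336 with hydrogen peroxide and 3145 and 2862 with interleukin. Trp53inp1, a p53-induced regulator of cell death, gave 3499 and 3734, then 12259.9 and 13383, then 6954 and 5360.2, and the epoxide hydrolase Ephx1 1552 and 1596, then 6536 and 7042, then 2539.8 and 2717. In all 3 the interleukin arrays lay above vehicle and below hydrogen peroxide, without overlap. Their changes under interleukin, 0.49, 0.76 and 0.74, passed the test on their own (adjusted p 0.0196, 0.00329 and 0.00222). Another tested probe set of Mdm2 changed by 0.03 under interleukin (adjusted p 0.936), and another of Trp53inp1 by -0.06 (adjusted p 0.922), and both overlapped the vehicle arrays there.

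Bcl2 family members, caspases and apoptosis inhibitors had 5 of 24 called higher and none lower, with a median of 0.11. In common were 3 of them (12.5%), beside 7.17% of all genes. Bbc3, the pro-apoptotic PUMA, went from 239 and 146 to 509 and 542 with hydrogen peroxide and 492 and 434 with interleukin. Bid, another BH3 protein, rose by 0.74 ± 0.15 (SE, adjusted p 0.00946), and the inflammatory caspase Casp1 by 1.07 ± 0.29 (adjusted p 0.0354). Another tested Bid probe set changed by -0.09 (adjusted p 0.895). TNF receptors and ligands had 3 of 13 called each way, with 1 up (7.69%) and 3 down (23.1%) in common and a median of 0.24. The upward one, Eda2r, a receptor that p53 also induces, gave 301 and 279, then 1526 and 1585, then 438 and 398. Downward were the decoy receptors Tnfrsf23 and Tnfrsf22 and the neurotrophin receptor Ngfr, by -0.90 ± 0.18, -0.53 ± 0.14 and -0.77 ± 0.18 (SE). Other tested Ngfr probe sets changed by -0.13 (adjusted p 0.779) and -0.80 (adjusted p 0.0653) and overlapped the vehicle arrays.

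DNA replication and nucleotide supply genes were the list with the largest share in the downward response. Of 34 tested members 23 were called lower and none higher, and all 23 (67.6%) belonged to the downward response, beside 4.78% of all genes. On 32 of the 34 all 4 treated arrays lay below both vehicle arrays, beside 1436 of all 10892 genes. The falls were small, with a median of -0.38 for the list, -0.40 under hydrogen peroxide and -0.35 under interleukin, and the difference between the treatments was called for 3 members. The count fell to 7 without vehicle array 1 and 8 without vehicle array 2, and was 19 to 22 without any treated array. It was 5 when the variance model of limma had no trend on signal.

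Rfc3, a subunit of the clamp loader, gave 8466 and 7679 with vehicle, 4719 and 4577 with hydrogen peroxide and 4432 and 4413 with interleukin, and fell by 0.83 ± 0.09 (SE, adjusted p 0.000364). The 4 treated arrays lay within a narrow band below vehicle. Cdc6, which loads the replicative helicase, gave 8029 and 8595, then 5121 and 5343, then 4527 and 5029.8. Rfc3 and Cdc6 passed also in the fit of 1 treated group (adjusted p 0.0377 and 0.047). Rpa2, a single-strand binding subunit, went from 6843 and 6968 to 4327 and 4491, then 3453 and 3832, and Rrm1, the large subunit of ribonucleotide reductase, from 18796 and 19372 to 10823 and 13164, then 10620.4 and 8799.

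E2F factors drive many replication genes, so the same windows were searched for TTTCGCG on both strands. It occurred in 5 of 24 windows (20.8%) of 20 matched downward members and in 0.849% of all windows. Shown are Rfc3 (chr5:151651159-151651458, minus strand), the member of smallest p, and Mcm5 (chr8:75109259-75109558, plus strand), a subunit of the replicative helicase, with the match in capitals.
Rfc3: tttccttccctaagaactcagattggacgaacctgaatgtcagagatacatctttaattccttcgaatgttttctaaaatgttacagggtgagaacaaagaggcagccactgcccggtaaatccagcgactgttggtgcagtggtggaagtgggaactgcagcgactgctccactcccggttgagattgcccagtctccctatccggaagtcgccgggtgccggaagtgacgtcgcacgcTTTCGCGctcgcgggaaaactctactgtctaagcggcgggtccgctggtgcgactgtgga
Mcm5: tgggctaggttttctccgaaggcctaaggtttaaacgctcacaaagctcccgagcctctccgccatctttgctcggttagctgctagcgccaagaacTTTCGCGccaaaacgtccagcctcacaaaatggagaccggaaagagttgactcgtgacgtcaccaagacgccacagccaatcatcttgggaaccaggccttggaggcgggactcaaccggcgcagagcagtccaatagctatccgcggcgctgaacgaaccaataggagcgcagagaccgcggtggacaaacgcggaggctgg

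Mitosis genes had 11 of 31 called lower and none higher, 10 (32.3%) of them in the downward response, with a median of -0.23. These falls leaned to interleukin: 14 members were lower under interleukin than under hydrogen peroxide and none higher, and the medians were -0.07 and -0.39. Kif23, a kinesin of the central spindle, gave 8394 and 8739 with vehicle, 5999 and 6782 with hydrogen peroxide and 5022 and 5554 with interleukin. Its partner Racgap1 gave 17942 and 17494, then 15681 and 14056, then 10121 and 11019.7, and the checkpoint protein Mad2l1 41185 and 40435, then 32983 and 31182, then 32456 and 29767. Kif20a, another mitotic kinesin, was 11768 and 11663 with vehicle and 10661 and 11637 with hydrogen peroxide, a gap of 0.0032, and 6602 and 7084 with interleukin. The count was 1 without either vehicle array, 4 without hydrogen peroxide array 1 and 15 without interleukin array 2, and 0 with no trend in the variance model.

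The letters TTTGAA, the CHR element known from mitotic promoters, were in 7 of 10 windows (70%) of 9 matched downward mitosis genes and in 17.9% of all windows. Capitals mark them in Racgap1 (chr15:99651607-99651906, minus strand) and Kif23 (chr9:61946750-61947049, minus strand), the 2 mitosis members of smallest p. Beside these, the CCAAT box was in 62.5% of the replication and 50% of the mitosis windows, against 37.4% of all, and in 85.7% of those of upward MHC genes, 60% of p53 targets and 53.8% of glycolysis genes.
Racgap1: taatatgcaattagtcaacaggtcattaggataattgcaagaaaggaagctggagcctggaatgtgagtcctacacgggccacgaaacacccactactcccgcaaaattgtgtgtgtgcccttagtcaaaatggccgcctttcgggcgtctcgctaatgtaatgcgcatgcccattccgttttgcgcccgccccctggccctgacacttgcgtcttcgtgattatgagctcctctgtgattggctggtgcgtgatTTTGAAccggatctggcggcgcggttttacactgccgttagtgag
Kif23: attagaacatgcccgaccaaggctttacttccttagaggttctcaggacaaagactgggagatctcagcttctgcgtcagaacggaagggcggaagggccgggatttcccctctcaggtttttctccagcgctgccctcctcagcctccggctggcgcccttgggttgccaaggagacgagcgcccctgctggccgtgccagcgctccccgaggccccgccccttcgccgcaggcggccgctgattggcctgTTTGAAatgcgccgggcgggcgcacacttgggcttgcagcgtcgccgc

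Among G1 cyclins and CDK inhibitors 1 of 20 was called higher (5%) and 2 lower (10%), all 3 in common, with a median of -0.04. The shares in common over all genes were 7.17% and 4.78%. Cyclin D1 (Ccnd1), which starts passage through G1, gave 488 and 569.9 with vehicle, 1918 and 1997 with hydrogen peroxide and 689.5 and 599 with interleukin, and its change under interleukin, 0.29, did not pass (adjusted p 0.318). Of its other probe sets, 1 passed under interleukin with a change of 0.73 (adjusted p 0.0357) and 1 changed by 0.48 (adjusted p 0.197), both in the upward response. Cyclin E2 (Ccne2) fell by 0.60 ± 0.13 (SE, adjusted p 0.0139) and the inhibitor Cdkn2c by 0.39 ± 0.08 (adjusted p 0.0128).

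**Figure D2:**
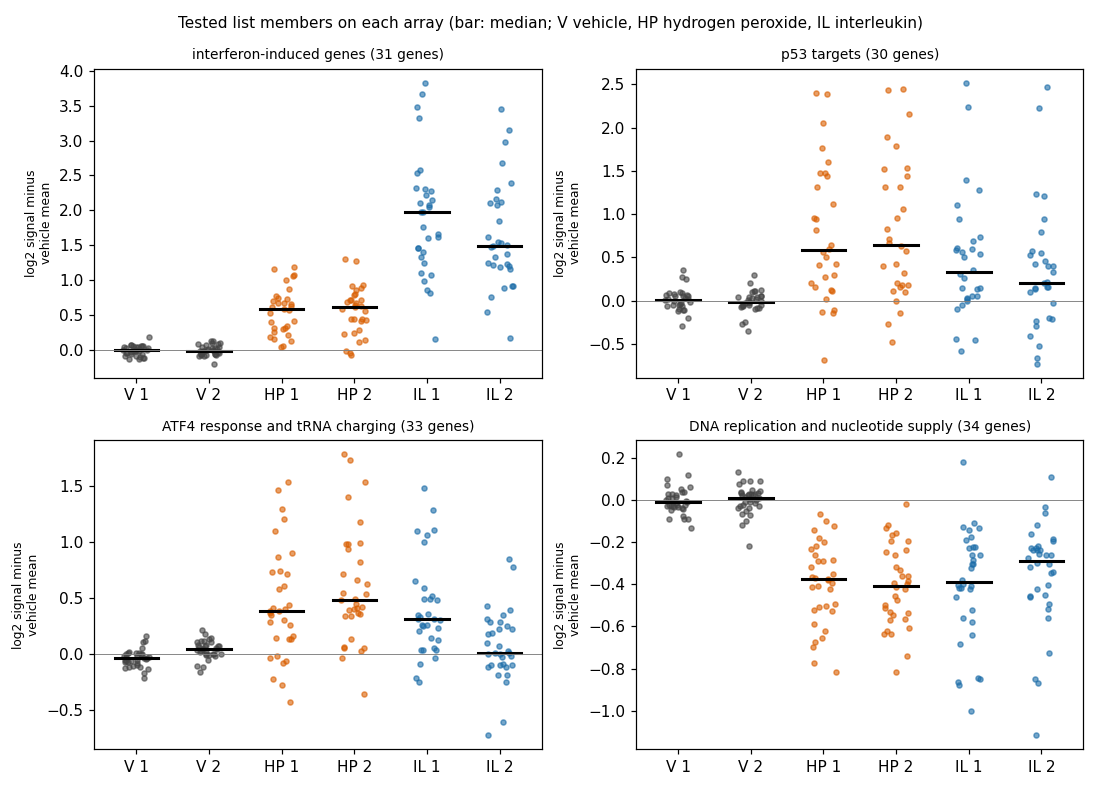
Every tested member of 4 lists on each array, as log2 signal minus the mean of both vehicle arrays, with a bar at the median; grey is vehicle, orange hydrogen peroxide and blue interleukin. The medians of the interferon list lie at 0.59 and 0.61 with hydrogen peroxide and 1.97 on interleukin array 1, those of the replication list between -0.41 and -0.29 on all 4 treated arrays, and the ATF4 list stands at 0.01 on interleukin array 2.

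ATF4 is the transcription factor of the integrated stress response, which supplies amino acids and charged tRNA. Of 33 tested members of its list 13 were called higher and none lower, and 10 (30.3%) were in the upward response, with a median of 0.31. Asparagine synthetase (Asns) gave 3654 and 4033 with vehicle, 11146 and 12739.6 with hydrogen peroxide and 10723 and 5178 with interleukin. Interleukin array 2 was the lowest of the treated arrays there, as it was for the list's median, 0.01 beside 0.31 on interleukin array 1. The glycine transporter Slc6a9 went from 1267 and 1469.9 to 2480.4 and 2700.4, then 2846 and 2461 and passed also in the fit of 1 treated group (adjusted p 0.047). Atf5, a related factor, rose by 0.56 ± 0.09 (SE, adjusted p 0.00317) and Ddit3, the stress factor CHOP, by 0.61 ± 0.11 (adjusted p 0.00554). The count was 1 without vehicle array 1, 6 without vehicle array 2 and 18 without interleukin array 2, and 2 with no trend in the variance model.

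Chaperones of the endoplasmic reticulum and the unfolded protein response had 2 of 25 called higher (8%) and 1 lower (4%), all in common and near the shares of all genes, with a median of 0.04. Edem1, which directs misfolded glycoproteins to degradation, fell by 0.49 ± 0.08 (SE, adjusted p 0.00271). Derl1 and Pdia6 rose by 0.28 ± 0.08 and 0.28 ± 0.08, calls that were lost under several alternatives. Another probe set of each had every treated array below vehicle without passing, at -0.20 (adjusted p 0.159) and -0.51 (adjusted p 0.194). Further Derl1 probe sets changed by 0.38 (adjusted p 0.0249), in the upward response, and 0.28 (adjusted p 0.285). Heat shock proteins had 2 of 21 called higher, both in common (9.52%, beside 7.17% of all genes), with a median of 0.05. The small heat shock proteins Hspb1 and Cryab were these: Hspb1 went from 3592 and 4051 to 7366 and 5775 with hydrogen peroxide and 6488 and 5844 with interleukin, and Cryab from 3770 and 3792 to 7649 and 7404, then 4985 and 4085.

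Immediate-early genes had 9 of 28 called higher and 2 lower, 7 (25%) and 2 (7.14%) in common, with a median of 0.23. Egr1, a zinc finger factor of early growth responses, gave 3153 and 3107 with vehicle, 8491 and 8209 with hydrogen peroxide and 3838 and 3555 with interleukin. Ier3 had the opposite order, 15234 and 15250.5, then 16579.7 and 16165, then 31856 and 27744. Klf4 fell by 0.60 ± 0.08 (SE, adjusted p 0.00115), beside Nr4a2 above. The upward count was 3 without either vehicle array and 4 without either hydrogen peroxide array. MAP kinase phosphatases, Sprouty and Spred proteins, the brakes on that pathway, had 5 of 15 called higher and none lower, 4 of them in common (26.7%), with a median of 0.07. These 4 were Dusp16, Spry2, Dusp4 and Etv5, with changes of 0.89 ± 0.16, 0.56 ± 0.11, 0.71 ± 0.15 and 0.44 ± 0.11 (SE). For none of them was a difference between the treatments called. Etv5, a transcription factor, was on the list but is not one of these brakes. Its other tested probe sets changed by 0.14 (adjusted p 0.57) and 0.25 (adjusted p 0.304) and overlapped the vehicle arrays.

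Glycolysis and hypoxia-induced genes had 15 of 29 called higher and 1 lower, with 11 (37.9%) up and 1 down in common and a median of 0.33. By the test of the difference 18 members were higher under interleukin than under hydrogen peroxide, with medians of 0.06 under hydrogen peroxide and 0.55 under interleukin. Adrenomedullin (Adm), a vasodilator peptide, gave 771 and 776 with vehicle, 1997 and 1548 with hydrogen peroxide and 5708 and 5495 with interleukin. The kinase Pdk1, which holds pyruvate out of mitochondria, gave 3477 and 3278, then 4808 and 4683, then 8512 and 7376, and the glucose transporter Slc2a1 5589.5 and 5349, then 7099 and 7049, then 10357 and 9629. All 3 had the hydrogen peroxide arrays between vehicle and interleukin. Bnip3, a mitophagy receptor, changed by 0.18 under hydrogen peroxide (adjusted p 0.313) and 1.42 under interleukin (adjusted p 9.15e-06). The core ACGTG of the hypoxia response element was in 6 of 13 windows (46.2%) of the upward members and in 3 of 6 (50%) of the upward NF-kappaB genes, against 19.6% of all windows. Without vehicle array 1 the count was 6.

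Oxidative phosphorylation genes had 1 of 38 called higher (2.63%) and 3 lower (7.89%), all in common, with a median of -0.12. These shares were near or below those of all genes, 7.17% upward and 4.78% downward. Ppargc1b, a coactivator of mitochondrial genes, gave 607 and 641 with vehicle, 206 and 428 with hydrogen peroxide and 117 and 128 with interleukin, and fell by 1.71 ± 0.32 (SE, adjusted p 0.00762). The nuclear receptor Esrra rose by 0.64 ± 0.17 (adjusted p 0.0305), and the subunits Ndufa4 and Sdhb fell by 0.28 ± 0.07 and 0.26 ± 0.07.

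Cholesterol synthesis genes had 7 of 18 called lower and none higher, 5 (27.8%) of them in the downward response, with a median of -0.27. The changes were larger under hydrogen peroxide: the medians were -0.52 and -0.02, and 12 members were higher under interleukin than under hydrogen peroxide. Idi1, which isomerises isopentenyl diphosphate, gave 27845 and 26058 with vehicle, 17779 and 15634 with hydrogen peroxide and 20988 and 21938 with interleukin. Another tested Idi1 probe set changed by -0.05, overlapped the vehicle arrays and did not pass (adjusted p 0.827). Fdps, the next synthase of the pathway, changed by -0.69 (adjusted p 0.0013) and -0.10 (adjusted p 0.426), and Srebf2, the master regulator, by -0.62 (adjusted p 0.00974) and -0.27 (adjusted p 0.119). Insig1, which retains that regulator in the endoplasmic reticulum, fell by 0.52 ± 0.12 (SE, adjusted p 0.0207). The count was 0 without vehicle array 1, 1 without vehicle array 2 and 8 without interleukin array 1. In fatty acid and lipid handling 2 of 19 were called higher and 3 lower, 1 (5.26%) and 2 (10.5%) in common, with a median of -0.05. The transfer protein Pltp went from 8859.8 and 7790 to 21830.3 and 18572, then 15617 and 11363, while the elongase Elovl6 and the carnitine transferase Cpt1a fell by 0.61 ± 0.10 and 0.44 ± 0.09 (SE). Both other tested Cpt1a probe sets had changes of opposite sign that did not pass, 0.25 (adjusted p 0.276) and 0.13 (adjusted p 0.693).

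Genes for defence against oxidants formed 3 lists. NRF2 targets and glutathione genes had 3 of 27 called higher and none lower, all 3 (11.1%) in common, with a median of 0.05. Of all genes, 8.43% were called higher and 7.17% rose in common, so 3 members are not far from that share. Heme oxygenase (Hmox1) gave 2042 and 2099.9 with vehicle, 3344 and 3272 with hydrogen peroxide and 2553 and 2414 with interleukin, the glutathione transferase Gstt1 gave 1898 and 1917, then 3028 and 2414, then 7009 and 6137, and the exporter Abcc1 rose by 0.47 ± 0.13 (SE, adjusted p 0.0444). Among superoxide dismutases, catalase, peroxiredoxins and NADPH oxidase genes, 2 of 10 were called higher, both (20%) in common, with a median of -0.05. Beside Sod2 this was Cyba, the membrane subunit of NADPH oxidases, from 424 and 269 to 843 and 667, then 691 and 695. Metallothioneins and zinc transporters had 4 of 14 called higher, 3 (21.4%) in common, with a median of 0.04. The zinc importers Slc39a14 and Slc39a8 and metallothionein Mt1 were each higher under interleukin than under hydrogen peroxide, by 1.62, 0.91 and 1.81.

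**Figure D3:**
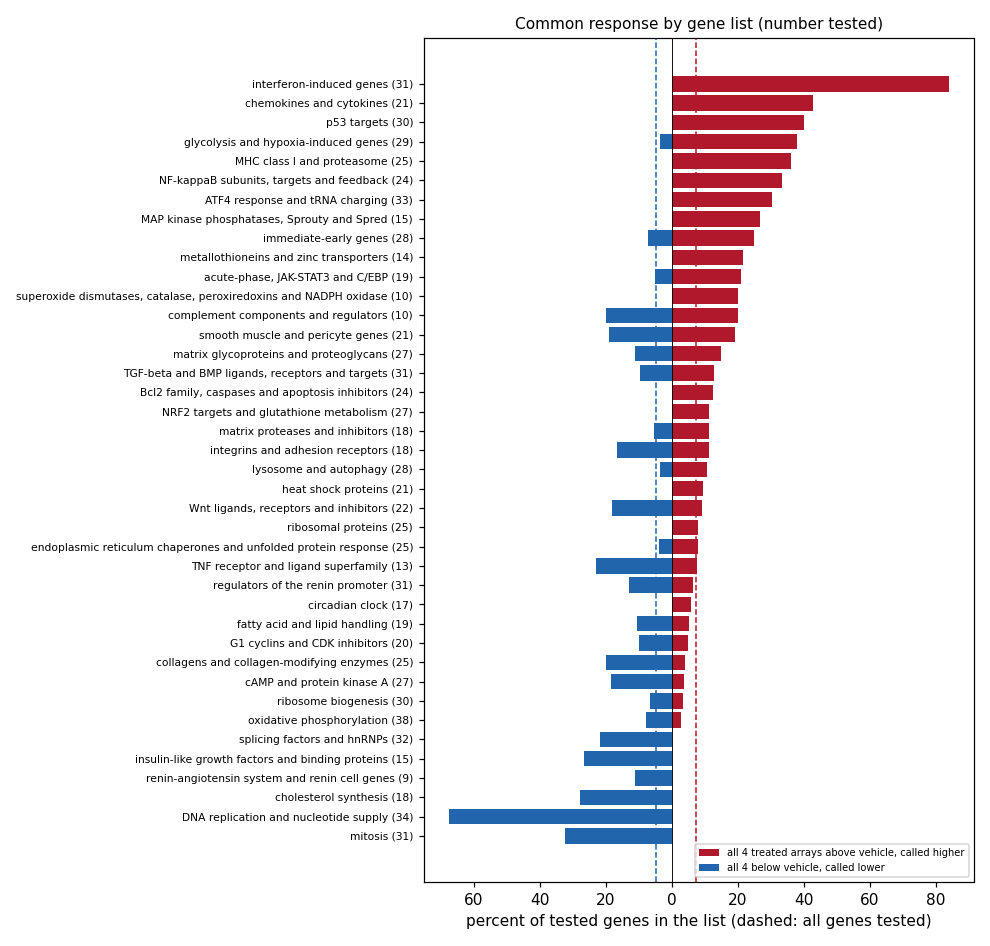
Share of each list's tested genes (number in brackets) in the upward response, drawn to the right in red, and in the downward response, drawn to the left in blue, in percent. Dashed lines mark the shares over all genes tested, 7.17% upward and 4.78% downward; interferon-induced genes reach 83.9% and replication genes 67.6%.

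Matrix genes went both ways. Collagens and collagen-modifying enzymes had 2 of 25 called higher and 5 lower, 1 (4%) and 5 (20%) in common, with a median of -0.09. Col1a1, the main fibrillar collagen chain, gave 42337 and 48001 with vehicle, 27476 and 26449 with hydrogen peroxide and 35930.1 and 39096 with interleukin. Col1a2, its partner chain, fell by 0.37 ± 0.07 (SE, adjusted p 0.00664) and Col6a3, of collagen VI, by 0.58 ± 0.09 (adjusted p 0.0035), with gaps of only 0.01 and 0.01. Col18a1, a basement membrane collagen, rose from 239.5 and 143 to 942 and 1029.8, then 437 and 381. The downward count was 1 without vehicle array 2 and 3 without either hydrogen peroxide array.

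Matrix glycoproteins and proteoglycans had 6 of 27 called higher and 5 lower, 4 (14.8%) and 3 (11.1%) in common, with a median of 0.02. Tenascin C (Tnc), an adhesion-modulating glycoprotein, gave 336 and 287 with vehicle, 527 and 515 with hydrogen peroxide and 3891 and 2592 with interleukin, and the proteoglycan Prelp 345 and 429, then 658 and 538, then 10856 and 6686. Under hydrogen peroxide alone neither passed (adjusted p 0.0761 and 0.139), while another probe set of Prelp did, with a change of 2.25 (adjusted p 0.0059). The vehicle signals of that probe set, 46.5 and 47.4, lay below the lowest mean signal tested. Matrix proteases and inhibitors had 4 of 18 called higher and 1 lower, 2 (11.1%) and 1 (5.56%) in common, with a median of 0.11. Beside them stand 7.17% and 4.78% of all genes in common. The metalloproteinase inhibitor Timp2 went from 44887 and 44248 to 30967 and 30451, then 26220 and 26893, and passed in the fit of 1 treated group (adjusted p 0.047). The serpin Serpinf1 rose by 0.89 ± 0.10 (SE, adjusted p 0.000427) and Mmp11 by 0.51 ± 0.14 (adjusted p 0.0343).

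Integrins and adhesion receptors had 2 of 18 called higher (11.1%) and 3 lower (16.7%), all in common, with a median of 0.11. Over all genes 7.17% rose and 4.78% fell in common. The hyaluronan receptor Cd44 gave 13148 and 13813 with vehicle, 21954 and 21303 with hydrogen peroxide and 21203 and 18635 with interleukin, and passed in the fit of 1 treated group (adjusted p 0.047). Itga8, an integrin chain of mesangial and smooth muscle cells, gave 1994 and 1878, then 994 and 1103, then 797 and 608. Cd44 was thus a member of the upward and Itga8 of the downward response. The adhesion molecule Ncam1 fell by 0.69 ± 0.11 and Itga6 by 0.50 ± 0.12 (SE).

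Growth factor genes came next. Insulin-like growth factors and their binding proteins had 4 of 15 called lower and none higher, all 4 in common (26.7%), with a median of -0.12. Igf1, the ligand, gave 7359.6 and 7965 with vehicle, 4769 and 4176 with hydrogen peroxide and 3333 and 4435 with interleukin, and its other 3 tested probe sets fell too. The binding proteins Igfbp6 and Igfbp3 and the protease Pappa, which cuts binding proteins, fell by 0.40 ± 0.09, 0.69 ± 0.18 and 0.71 ± 0.18 (SE). The count was 2 without vehicle array 1, 1 without vehicle array 2 and 2 without hydrogen peroxide array 2.

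TGF-beta and BMP genes had 7 of 31 called higher and 4 lower, 4 (12.9%) and 3 (9.68%) in common, with a median of 0.01. Of all genes, 7.17% rose and 4.78% fell in common. The ligand Bmp2 went from 749.9 and 560.2 to 1211 and 989 with hydrogen peroxide and 2416 and 1908 with interleukin, and its target Id2 fell from 3411 and 2938 to 1838 and 1816, then 1876 and 1746. The matricellular Ccn1 rose by 0.59 ± 0.10 (SE, adjusted p 0.00381). Wnt ligands, receptors and inhibitors had 2 of 22 called higher (9.09%) and 4 lower (18.2%), all in common, with a median of -0.02. The receptor Fzd2 fell by 0.67 ± 0.10 (SE, adjusted p 0.00234), the ligand Wnt5b by 1.16 ± 0.22 (adjusted p 0.00791) and the secreted inhibitor Sfrp2 by 0.33 ± 0.06 (adjusted p 0.00752), while the receptor Fzd7 rose by 0.63 ± 0.11 (adjusted p 0.00559). Another tested Fzd7 probe set changed by -0.10 and did not pass (adjusted p 0.866).

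Genes tied to the identity of renin cells went both ways. Renin itself is not analysed here. Smooth muscle and pericyte genes had 4 of 21 called higher and 5 lower, 4 and 4 (19% each) in common, with a median of 0.06. Smooth muscle actin (Acta2) gave 6147 and 6113 with vehicle, 9379 and 9493 with hydrogen peroxide and 15280.4 and 9722 with interleukin, and the receptor Notch3 417 and 505, then 1206 and 1410.1, then 1120.1 and 805. Foxd1, a factor of the stromal lineage from which renin cells arise, gave 2313 and 1992, then 1000.5 and 1185, then 1372 and 1458, and Crip1 fell by 0.58 ± 0.11 (SE, adjusted p 0.00702). Acta2 and Notch3 thus belonged to the upward and Foxd1 and Crip1 to the downward response.

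The renin-angiotensin list had 2 of 9 called lower and none higher, 1 (11.1%) in common, with a median of -0.13. That member was Enpep, aminopeptidase A, which degrades angiotensin II, from 6152 and 6060.5 to 3857 and 3758 with hydrogen peroxide and 3871 and 4313 with interleukin. Regulators of the renin promoter had 2 of 31 called higher (6.45%) and 4 lower (12.9%), all in common, with a median of -0.12. The vitamin D receptor (Vdr), a repressor of renin, gave 8408 and 7657, then 5709 and 5575, then 3966 and 4919. The homeodomain factors Meis1 and Pknox1 fell by 0.66 ± 0.15 and 0.70 ± 0.16 (SE), and Nfic rose by 0.39 ± 0.08. Other tested Nfic probe sets changed by 0.08, -0.15, 0.17 and 0.13, overlapped the vehicle arrays and did not pass (adjusted p 0.38 to 0.836). With arrays centred on their 75th percentile the downward count of this list was 8.

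The list of cyclic AMP and protein kinase A genes had 2 of 27 called higher and 5 lower, 1 (3.7%) and 5 (18.5%) in common, with a median of -0.13. The phosphodiesterases Pde4d and Pde3b, which break cyclic AMP down, both fell. Pde4d gave 12903 and 13249.5, then 9714 and 9344, then 6422 and 6707, and Pde3b gave 12777 and 13588, then 9282 and 10228, then 6132 and 7023. The cyclase Adcy5, which makes it, fell by 0.60 ± 0.13 (SE, adjusted p 0.0156), and the anchoring protein Akap2 rose by 0.40 ± 0.08 (adjusted p 0.0098). The downward count was 2 without either vehicle array.

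Genes of general RNA and protein metabolism followed. Splicing factors and hnRNPs had 7 of 32 (21.9%) called lower, all in common, and none higher, with a median of -0.15. Srsf3, Srsf11, Tra2b and Hnrnpd fell by 0.45 ± 0.11, 0.34 ± 0.08, 0.28 ± 0.07 and 0.30 ± 0.07 (SE), and the count was 0 without either vehicle array and 2 and 4 without hydrogen peroxide array 1 or 2. Ribosome biogenesis had 1 of 30 called higher (3.33%) and 2 lower (6.67%), all in common, with a median of 0.10. Nucleolin (Ncl) rose by 0.36 ± 0.07, and Nop56 and Polr1a fell by 0.44 ± 0.10 and 0.45 ± 0.12. Other tested Ncl probe sets changed by 0.64 (adjusted p 0.0343), 0.28 (adjusted p 0.293), 0.03 (adjusted p 0.887) and -0.14 (adjusted p 0.817). Ribosomal proteins had 2 of 25 called higher, Rpl37 and Rpl14, both in common (8%), and 1 lower, with a median of 0.03. In the circadian clock list 2 of 17 were called higher and 1 (5.88%), Ciart, was in common, with a median of 0.17. Lysosome and autophagy genes had 4 of 28 called higher and 1 lower, 3 (10.7%) and 1 (3.57%) in common, with a median of 0.09. Apart from splicing factors, the shares of these lists were near those of all genes, 7.17% upward and 4.78% downward. Cathepsin L (Ctsl) went from 11472 and 11771 to 19315 and 16675, then 21602 and 17411, Npc2 and Hexa rose by 0.47 ± 0.07 and 0.39 ± 0.09, and Map1lc3b fell by 0.34 ± 0.08 (SE).

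**Figure D4:**
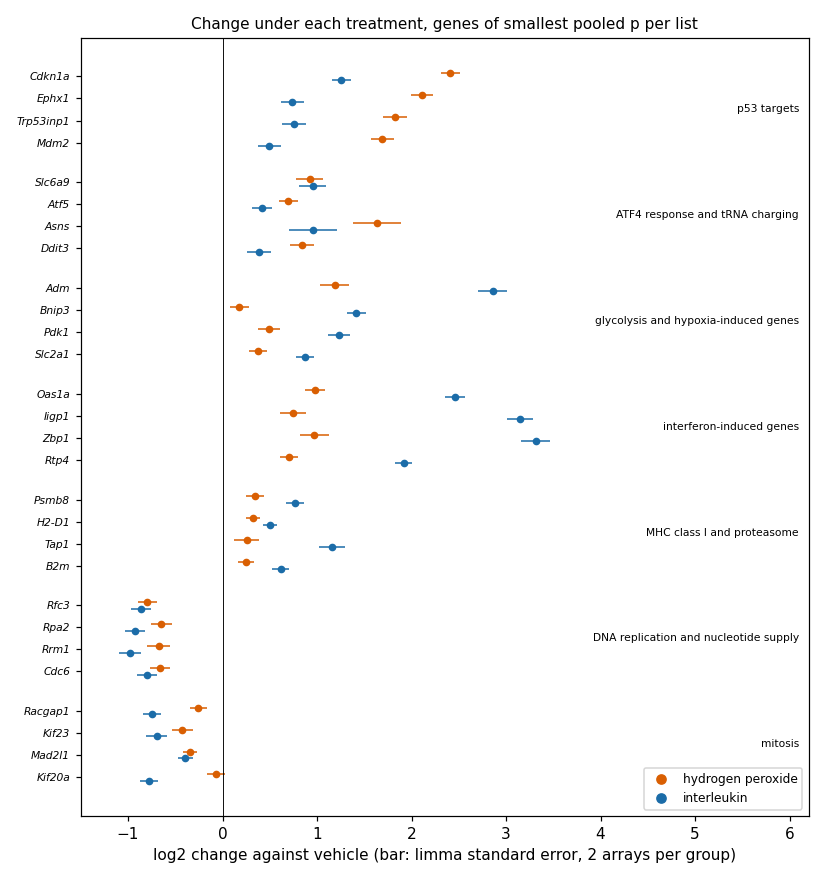
Log2 change against vehicle under hydrogen peroxide (orange) and interleukin (blue) for the genes of smallest pooled p in 7 lists, with bars of 1 limma standard error and 2 arrays per group. Cdkn1a stands at 2.41 and 1.26, Zbp1 at 0.97 and 3.31, Rfc3 at -0.79 and -0.87; both changes of a gene use the same vehicle arrays.

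Markers of cell types that a culture of this line should lack were mostly dim. Of 10 leukocyte markers on the array 3 were tested, and Ptprc, Cd3e, Tyrobp and Aif1 stayed below the lowest tested mean of 193.7 on all 6 arrays, none of them at 0. Itgam stayed below it too, but Adgre1 reached 253 on interleukin array 2. Lyz2 reached 198.6 on hydrogen peroxide array 2 and 202.4 on interleukin array 1. The summed signal of the 10 was 3922 and 3935 with vehicle, 4784 and 4603 with hydrogen peroxide and 6600 and 7495 with interleukin. Of the 3 tested members Cd14 and Cd68 rose by 0.51 ± 0.11 and 1.15 ± 0.22 (SE, adjusted p 0.0166 and 0.00849). Csf1r changed by 0.20, did not pass (adjusted p 0.551) and overlapped the vehicle arrays. The part of these leukocyte signals in the rise of immune genes was not tested. In the wider list of leukocyte and macrophage markers 2 of 4 tested were called higher, beside 8.43% of all genes, with a median of 0.57.

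Endothelial markers had 2 of 10 tested, and their sum was 14009 and 16440 with vehicle, 12220 and 11444 with hydrogen peroxide and 9016 and 12748 with interleukin. The VEGF receptor Kdr, at 13235 and 15689.7 with vehicle, made up most of it and fell by 0.50 ± 0.13 (SE, adjusted p 0.0274). Eng, also tested, changed by 0.27 and did not pass (adjusted p 0.516). Pecam1, Vwf, Tie1, Emcn and Cldn5 were below 193.7 on all arrays. Tek and Cdh5, too dim to be tested, were higher on every treated array than on both vehicle arrays. Tek gave 61.9 and 138.6, then 194.7 and 189.7, then 164.1 and 330.5. Cdh5 gave 55.2 and 75.8, then 87.2 and 106.2, then 110 and 206.3. Flt1, also untested, overlapped the vehicle arrays but reached 264.2 on interleukin array 2. In the wider endothelial list 1 of 3 tested was called lower, with a median of 0.27. Epithelial markers had 2 of 12 tested, with sums of 2057 and 2094, 1606 and 1364, and 1921 and 2006, and in the wider list 0 of 2 was called, with a median of -0.25. Of 10 renin lineage and pericyte markers 7 were tested, among them Acta2, Crip1 and Foxd1 above. Pdgfrb, Tbx18 and Abcc9 did not pass. Kcnj8 was called lower, by 0.94 (adjusted p 0.00871), although an interleukin array overlapped the vehicle arrays. It gave 2405 and 2327 with vehicle, 850 and 672 with hydrogen peroxide and 1595 and 2522 with interleukin. Rgs5, Gja4 and Gja5 were too dim to be tested.

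Of the 32 list counts of 3 or more, 22 moved by over 1.5 times without vehicle array 1 and 23 without vehicle array 2, and 1 to 6 without any treated array. The interferon, chemokine and NF-kappaB counts were among those that moved by less without either vehicle array. Among the shorter counts, MAP kinase phosphatases had 0 and 1 up, TNF receptors 0 and 0 down, oxidative phosphorylation 0 and 0 down, Wnt genes 1 and 0 down, renin promoter regulators 1 and 1 down, and smooth muscle genes 2 and 1 up and 0 and 2 down without vehicle array 1 or 2. Matrix glycoproteins had 2 and 2 up, NRF2 targets 1 and 1 up, lysosome genes 1 and 2 up, TGF-beta genes 4 and 2 up and 1 and 1 down, Bcl2 family genes 3 and 0 up, and integrins 1 and 2 down. Without hydrogen peroxide array 2 the smooth muscle count was 2 down and that of oxidative phosphorylation 1.

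Fitting the treated arrays as 1 group called 23 genes by their brightest probe set (0.211% of 10892). On none of these genes was a difference between the treatments called by limma. The fit counts that difference as spread, so genes without it pass more easily, and this outcome is no separate result. Genes that no rule above had named are named here because they passed this fit. The 10 that rose were C2, Cox6a2, Tcea3, Slc6a9 and Cd44 above, Irf9, Fetub, P2rx7, Smpdl3b and Anxa3. Irf9, the DNA-binding subunit of the interferon-activated ISGF3 complex, gave 1623 and 1518 with vehicle, 3514 and 3816 with hydrogen peroxide and 6171 and 4527 with interleukin. P2rx7, an ATP-gated channel, gave 592 and 684, then 1486 and 1617, then 1734 and 1234, and Anxa3, an annexin, 6334 and 6239, then 9924 and 10798, then 12738 and 10312. The fetuin Fetub rose by 1.26 ± 0.14 and the phosphodiesterase-like Smpdl3b by 1.15 ± 0.15 (SE).

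The 13 that fell were Tmem255a, Prss35, Tle4, Zmynd19, Aspn, Cd55, Rfc3, Cdc6 and Timp2 above, Ehd2, Uhrf1, Ptgfrn and Slbp. Uhrf1, which guides the copying of DNA methylation at replication, gave 14735 and 15666 with vehicle, 9855 and 9539.9 with hydrogen peroxide and 9690 and 10366 with interleukin. Slbp, the histone mRNA stem-loop binding protein, gave 33706 and 31045, then 23122 and 22759, then 22174 and 21501, and Ptgfrn, a membrane immunoglobulin protein, 22318 and 22931, then 15849 and 15433, then 15133 and 15814. Ehd2, a protein of caveolae, fell by 0.93 ± 0.11 (SE, adjusted p 0.000495). In each of these the 4 treated arrays lay below both vehicle arrays, a pattern that this fit favours, with gaps from 0.43 for Slbp to 1.46 for Tmem255a.

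Other probe sets of the same genes followed in part, so a value given for a gene is that of 1 probe set. Of the named genes, 88 had 149 other tested probe sets, of which 78 were called in the same direction and 71 were not called. A change of opposite sign was measured on 11 of them, and the text above gives other probe sets for some genes only. For 354 upward genes with further tested probe sets, 174 of 604 such probe sets (28.8%) belonged to the upward response and 5 were called lower. Of 533 further probe sets of 302 downward genes, 209 (39.2%) belonged to the downward response and 4 were called higher. The members nearest to the edge of the rule were Sphk1 upward, 2485.5 and 2563 with vehicle against a lowest treated signal of 2572, and Eme1 downward, with gaps of 0.0052 and 0.0021. Just outside were Adarb1 and Fbln2, on which 1 treated array overlapped the vehicle arrays, with gaps of -0.00025 and -0.011.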

How the data were processed

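The 6 cultures of As4.1 cells, 2 per group, were measured on 1 Affymetrix Mouse Genome 430 2.0 array each. The authors' deposited values are MAS5 signals, a linear intensity per probe set scaled to a common trimmed mean, per the submitters' processing notes and the values; its version is not stated there, and detection calls were not used here. Of 45101 probe sets 64 controls were set aside, and the 22519 with a mean log2 signal at or above the median of the rest were tested. Dim probe sets are therefore not described, and the precision is limited by 2 arrays per group. Limma 3.58.1 in R 4.3.3 fitted 3 group means to log2 signals, with no value added, with a trend on signal in eBayes. The contrast was the mean of both treatments minus vehicle, two-sided, with Benjamini-Hochberg adjustment over all tested probe sets and a threshold of 0.05. That fit keeps the difference between the treatments out of the spread.

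Probe sets were named by the platform annotation where it gave 1 symbol (34945, of which 34741 matched RefSeq), while 932 had several symbols and 9160 none. The genes named are the 15 widest gaps in each direction and up to 4 common members of smallest p in each of 43 lists (1164 distinct genes, 916 tested). Members and lists were chosen with earlier results of these data known, so they are no independent evidence. Promoter windows are RefSeq sequences of build GRCm38.p6. The series' design text gives each group 2 cultures. The p-values rest on the spread between cultures of a group, pooled over the 3 groups. Limma moderates this spread toward a trend on signal over all tested probe sets, so it is not that of a gene's own cultures alone. Alternatives covered normalization, centring, a pseudocount, filters, the variance model, a fit of 1 treated group, a replicate block, each array left out, and the choice of probe sets. Recounting the lists under these alternatives was a choice made after seeing the data.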

Additional observations from a re-analysis of the deposited data

Results flagged for a closer look

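Some members of the common response differed between the treatments by limma's test of interleukin minus hydrogen peroxide, although both treatments lay on the same side of vehicle. Among the upward probe sets 276 were higher and 58 lower under interleukin, and among the downward ones 34 and 208. In brackets below is that difference in log2 signal for the named genes.

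Signals were more than 4-fold apart, with interleukin higher, for Saa3 (7.22), Il6 (5.29), Lcn2 (4.78), Prelp (3.84), Ccl2 (2.85), Ptx3 (2.71), Tnc (2.61), Il33 (2.61), Lif (2.58), Nfkbiz (2.55), Iigp1 (2.40), Ptgs2 (2.37), Zbp1 (2.34) and Sod2 (2.24). Differences of 1 to 2 were measured for Ifit3 (1.93), Mt1 (1.81), Adm (1.67), Slc39a14 (1.62), C1ra (1.54), Oas1a (1.48), Ltbp2 (1.43), Gstt1 (1.28), Bnip3 (1.24) and Rtp4 (1.21). Smaller ones, again with interleukin higher, were found for Bmp2 (0.97), Tap1 (0.91), Slc39a8 (0.91), Ier3 (0.86), Nfkbia (0.83), Cd14 (0.79), Fzd7 (0.74), Pdk1 (0.74), Fdps (0.59), Elovl6 (0.57), Mgp (0.56), Slc2a1 (0.50), Col1a1 (0.48), Npc2 (0.47), Akap2 (0.43), Col1a2 (0.42), Psmb8 (0.42), Sfrp2 (0.39), B2m (0.37) and Idi1 (0.36). In the downward members of this last group the fall was the smaller one under interleukin.

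Hydrogen peroxide gave the higher signal for 1700007K13Rik (-2.37), Eda2r (-1.90), Ccnd1 (-1.61), Ephx1 (-1.37), Col18a1 (-1.27), Dcxr (-1.21), Mdm2 (-1.20), Egr1 (-1.18), Cdkn1a (-1.15), Trp53inp1 (-1.07), Fam189a2 (-0.76), Cryab (-0.74), Col6a3 (-0.71), Klf4 (-0.71), Kif20a (-0.70), Nog (-0.60), Pltp (-0.60), Pde3b (-0.57), Pde4d (-0.54), Racgap1 (-0.49) and Ddit3 (-0.46). Among these, Mdm2, Cdkn1a, Eda2r, Ephx1 and Trp53inp1 are p53 targets.

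Outside the expression comparison, 3' to 5' ratios of 3 control genes, but not of Gapdh, were higher on every treated array than on both vehicle arrays. The lowest treated ratio was 1.32 for beta-actin against a highest vehicle ratio of 1.26, 2.30 against 2.14 for the transferrin receptor and 2.03 against 1.66 for pyruvate carboxylase. Whether this bears on the counts was not tested.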

How the results depend on the processing

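No named gene changed direction under any alternative, but for most alternatives this was fixed by how the genes were chosen. Every treated array of a named gene lay on the same side of every vehicle array. Leaving out an array, another fit or variance model, a pseudocount or a filter therefore could not reverse its change. Only normalization and centring, which rescale arrays against each other, could have done so. Counts of probe sets, in the order called, called higher, called lower, common upward and common downward, were 2865, 1457, 1408, 1235 and 1310. Leaving out each array in turn gave 744 to 3155, 470 to 1648, 274 to 1507, 434 to 1455 and 274 to 1468, with the lowest values without vehicle array 1 and 790, 499, 291, 454 and 291 without vehicle array 2. With no trend in the variance model they were 920, 578, 342, 513 and 338. With the treated arrays as 1 group they were 56, 24, 32, 24 and 32, since the difference between the treatments then counts as spread. A fold of at least 2 left 527, 315, 212, 273 and 207. With no filter on signal 909 were called lower. Without probe sets of several transcripts 1883 were called, 938 higher, and 781 rose in common, and with 1 probe set per gene 719 were called lower and 651 fell in common, where fewer probe sets were tested. Other causes were not tested. Of the 163 named genes, 149 lost their call in the fit of 1 treated group, and 87 lost it without at least 1 array. Calls were 50.9% higher, so that most were higher, and mostly lower after quantile normalization (49.1% higher, 1438 against 1491) and centring on the 75th percentile (43.3% higher, 1346 against 1765).

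What equal replicate numbers share is not stated, and they were not used as pairs: deviations of same-numbered arrays correlated at 0.107 for vehicle and hydrogen peroxide, 0.0535 for vehicle and interleukin and -0.129 for hydrogen peroxide and interleukin. A replicate block gave 2663, 1382, 1281, 1147 and 1181 in the same order. With 2 arrays per group and no detection calls, changes of dim probe sets are measured least firmly.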

Other observations

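Klk1, a kallikrein that releases kinins, lies outside the rule for named genes and was singled out after its values had been seen. On 3 of its probe sets the signals were 1264 and 1304, 1361 and 1258, and 1252 and 916.5 with vehicle. With hydrogen peroxide they were 163 and 245.6, 281 and 261.4, and 161.7 and 307.1, and with interleukin 46.4 and 192, 114.2 and 104.1, and 57.3 and 21.4. These probe sets fell, with log2 changes of -3.22, -2.93 and -3.60 and gaps of 2.36, 2.16 and 1.58. The Klk1 probe set of highest mean log2 signal read 593.7 and 531.9, 633.2 and 657.6, and 400.9 and 304.7, and its change of -0.24 did not pass (limma, adjusted p 0.471). Kallikrein genes are near-identical, so which family member each probe set reads is uncertain.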
